A study of Rattus norvegicus with 18 samples.

Results

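This account follows 5 transcripts, of 41078 in the count table, that were lower in the dorsal root ganglia (DRGs) of rats after total knee arthroplasty (TKA) than after sham surgery. They are *Dhrs2* (ENSRNOT00000024483), *Zmiz2* (ENSRNOT00000052002), *Pak2* (ENSRNOT00000071060), *Cryba2* (ENSRNOT00000024283), and *Dlx3* (ENSRNOT00000005797). They were chosen by their TKA and sham counts in these same rats, so that difference is described here and not tested. The naive rats took no part in the choice, and they are used to ask, for each transcript, whether TKA rats lay below the unoperated level or whether only sham rats lay above it.

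All animals were Sprague Dawley rats with no genetic change, of which 3 were labelled male and 3 female in each group. The 6 naive rats had no procedure, the 6 sham rats had anesthesia with a skin incision and sutures at the left knee, and the 6 TKA rats had anesthesia and the whole joint replacement on that side. RNA was sequenced from the left L3 and L4 DRGs, 24 h after surgery in both operated groups. Sham rats therefore shared the anesthesia, the incision, and the time of collection with TKA rats, and naive rats shared none of these.

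DRGs contain the somata of sensory neurons that serve the limb, with satellite glia, Schwann cells, and macrophages around them, and a cut nerve ending can alter transcription in the distant cell body. *Dhrs2* encodes an NADPH-dependent reductase of the short-chain dehydrogenase/reductase family. *Dlx3* encodes a homeodomain transcription factor of the Distal-less family that is best known from skin, teeth, and placenta, and *Cryba2* a beta-crystallin, a structural protein of the eye lens. *Zmiz2* encodes a PIAS-like zinc finger coactivator of nuclear receptors with a MIZ domain of the kind found in SUMO ligases. *Pak2* encodes a p21-activated serine/threonine kinase that is switched on by the GTPases Cdc42 and Rac and acts on the actin cytoskeleton.

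Promoter sequences are shown for the members that are set side by side in pairs further on, *Dhrs2* with *Cryba2* and *Zmiz2* with *Pak2*, so that the letters before each start can be compared. RefSeq's promoter table (GRCr8) matched 4 of the 5 genes. The 250 bases before the start lie at chr15:32658605-32658854 on the plus strand for *Dhrs2* (the first of 2 listed starts), at chr9:83899132-83899381 on the minus strand for *Cryba2*, at chr14:85465123-85465372 on the plus strand for *Zmiz2*, and at chr11:82212685-82212934 on the plus strand for *Pak2*. Each is written 5′ to 3′ toward the gene, and capitals mark matches to the motifs named after the sequences.
Dhrs2 start 1: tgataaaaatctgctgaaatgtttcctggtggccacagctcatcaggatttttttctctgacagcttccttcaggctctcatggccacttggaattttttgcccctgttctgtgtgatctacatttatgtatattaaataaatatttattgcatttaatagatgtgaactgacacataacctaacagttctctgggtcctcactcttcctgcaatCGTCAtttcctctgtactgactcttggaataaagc
Cryba2: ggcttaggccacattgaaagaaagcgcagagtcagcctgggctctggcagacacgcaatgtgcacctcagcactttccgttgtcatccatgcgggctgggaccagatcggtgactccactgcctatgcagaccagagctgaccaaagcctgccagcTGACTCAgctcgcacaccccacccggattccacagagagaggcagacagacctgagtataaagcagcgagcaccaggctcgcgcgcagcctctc
Zmiz2: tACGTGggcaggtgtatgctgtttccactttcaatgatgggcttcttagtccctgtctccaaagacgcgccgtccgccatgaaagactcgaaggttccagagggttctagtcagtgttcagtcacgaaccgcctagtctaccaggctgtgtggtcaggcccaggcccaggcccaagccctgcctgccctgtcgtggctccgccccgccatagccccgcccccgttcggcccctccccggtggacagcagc
Pak2: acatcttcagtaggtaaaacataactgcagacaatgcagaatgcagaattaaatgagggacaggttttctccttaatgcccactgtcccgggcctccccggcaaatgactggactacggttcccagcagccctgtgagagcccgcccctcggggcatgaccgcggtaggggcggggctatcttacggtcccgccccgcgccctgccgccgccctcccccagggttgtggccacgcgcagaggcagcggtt

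Both strands were searched for the AP-1 motif TGANTCA, the CRE TGACGTCA, its core TGACG, the hypoxia core ACGTG, and the E-box CACGTG. The *Cryba2* stretch held 1 AP-1 match, TGACTCA, 94 bases before the start, and 6.34% of all 33469 rat promoters of this length held one. The first *Dhrs2* start had 1 match to the CRE core, read as CGTCA on the strand shown and 35 bases before the start, a motif held by 18.2% of promoters. The *Zmiz2* stretch held 1 hypoxia core 249 bases before the start, held by 16.6% of promoters, and the *Pak2* stretch held none of the 5 motifs. The full CRE and the E-box, held by 1.59% and 5.59% of promoters, were found in none of the stretches, the second *Dhrs2* start included. No motif was shared between the members of either pair. RefSeq lists 22 transcripts for *Zmiz2*, 5 for *Cryba2*, 3 for *Pak2*, 2 for *Dhrs2*, and 1 for *Dlx3*. Counts of 1 transcript of a gene with several, as for *Zmiz2*, are uncertain where isoforms share exons, and the way such reads were assigned is not given in the sources used here. Other transcripts of *Zmiz2* and *Pak2* could not be found by name and were not examined, so the values are of 1 transcript and not of the whole gene.

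Libraries held between 20230562 and 29343899 counts. All 5 transcripts were sparse, with 0 to 386 counts per rat, so each value carries counting error beside the difference between rats. Levels are CPM (counts relative to library size), with TMM factors from the 18 rats. TKA rats 2 and 6 stood apart, with the lowest mean log2 CPM of the neurofilament transcripts (*Nefl*, *Nefm*, *Nefh*) of all rats, at 12.5 and 12.8, against 13.2 to 13.9 in the other 16. TKA rat 2 also held the highest sum of 4 skeletal muscle markers, 8558 CPM, and of 8 myelinating Schwann cell markers, 91644 CPM. The library labelled female TKA rat 4 had at least 100 counts of 2 of the 3 transcripts that were at 100 or more in every male and at 10 or fewer in every other female, and at most 10 counts of the 1 transcript with the opposite pattern. Values of the members against naive rats are also given without these libraries.

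In the description of the levels, all 5 transcripts had a lower mean in TKA than in sham rats, and the position of the naive mean differed from one transcript to the next. It lay near the sham mean for *Dhrs2* and *Dlx3*, between both operated groups for *Cryba2* and *Zmiz2*, and below both for *Pak2*.

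*Dhrs2* was at 0.00, 0.167, 0.348, 0.382, 0.389, and 0.414 CPM in the 6 TKA rats, in ascending order. In sham rats the lowest value was 0.934, the median 2.81, and the highest 4.03 CPM, and in naive rats the lowest was 0.00, the median 1.73, and the highest 3.46 CPM. All 6 TKA rats lay below all 6 sham rats, and 5 of the 6 naive rats lay above every TKA rat. The sixth, naive rat 6, had no read of *Dhrs2* in a library where a count of 0 allows up to 0.146 CPM. The means were 2.62 ± 1.21 in sham, 1.85 ± 1.30 in naive, and 0.283 ± 0.165 CPM in TKA rats (SD, n = 6 each). Sham and naive rats, the upper neighbours in this order, overlapped across 4 sham and 5 naive rats.

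*Dlx3* was at 0.00, 0.233, 0.276, 0.287, 0.435, and 0.876 CPM in TKA rats. In sham rats the lowest value was 0.875, the median 1.66, and the highest 6.62 CPM, and in naive rats the lowest was 0.265, the median 1.87, and the highest 3.42 CPM. The highest TKA rat, rat 1, only just reached the lowest sham rat, and 5 of 6 naive rats lay above all TKA rats. The exception, naive rat 3, had 6 counts. The means were 2.57 ± 2.11 in sham, 1.97 ± 1.09 in naive, and 0.351 ± 0.293 CPM in TKA rats (SD, n = 6 each). The sham mean rested in part on sham rat 1, and the sham median was below the naive median.

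*Cryba2* ranged from 0.261 to 1.04 CPM in TKA rats (median 0.684), from 0.679 to 8.30 CPM in sham rats (median 3.78), and from 0.390 to 3.89 CPM in naive rats (median 1.54). Naive rats fell into a lower set, rats 2, 3, and 6, at 0.390 to 0.575 CPM, and an upper set, rats 1, 4, and 5, at 2.50 to 3.89 CPM. The lower set lay within the range of TKA rats and the upper set above it. The means were 3.67 ± 2.74 in sham, 1.88 ± 1.58 in naive, and 0.696 ± 0.282 CPM in TKA rats (SD, n = 6 each). Of sham rats, 3 lay above all naive rats and the other 3 within their range.

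*Zmiz2* ranged from 1.67 to 3.88 CPM in TKA rats (median 2.68), from 2.36 to 16.7 CPM in sham rats (median 12.3), and from 1.88 to 13.0 CPM in naive rats (median 3.38). The sham group was split, with rats 1, 3, 5, and 6 at 11.4 to 16.7 CPM and rats 2 and 4 at 2.36 and 4.59 CPM. A single naive rat, rat 2, reached 13.0 CPM, and the next highest was at 5.65 CPM. The means were 10.8 ± 6.02 in sham, 4.90 ± 4.21 in naive, and 2.71 ± 0.726 CPM in TKA rats (SD, n = 6 each). TKA and naive rats overlapped, with 3 naive rats above all TKA rats.

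*Pak2* was at 0.641, 1.26, 2.42, 6.19, 8.75, and 8.92 CPM in sham rats. In TKA rats the lowest value was 0.566, the median 0.745, and the highest 1.15 CPM, and in naive rats the lowest was 0.142, the median 0.378, and the highest 0.929 CPM. Of sham rats, 5 lay above all naive rats and above all TKA rats, and sham rat 2 lay among them. The means were 4.70 ± 3.74 in sham, 0.790 ± 0.231 in TKA, and 0.468 ± 0.323 CPM in naive rats (SD, n = 6 each). TKA rats had the middle place here, and 2 of them lay above all naive rats.

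**Figure D1:**
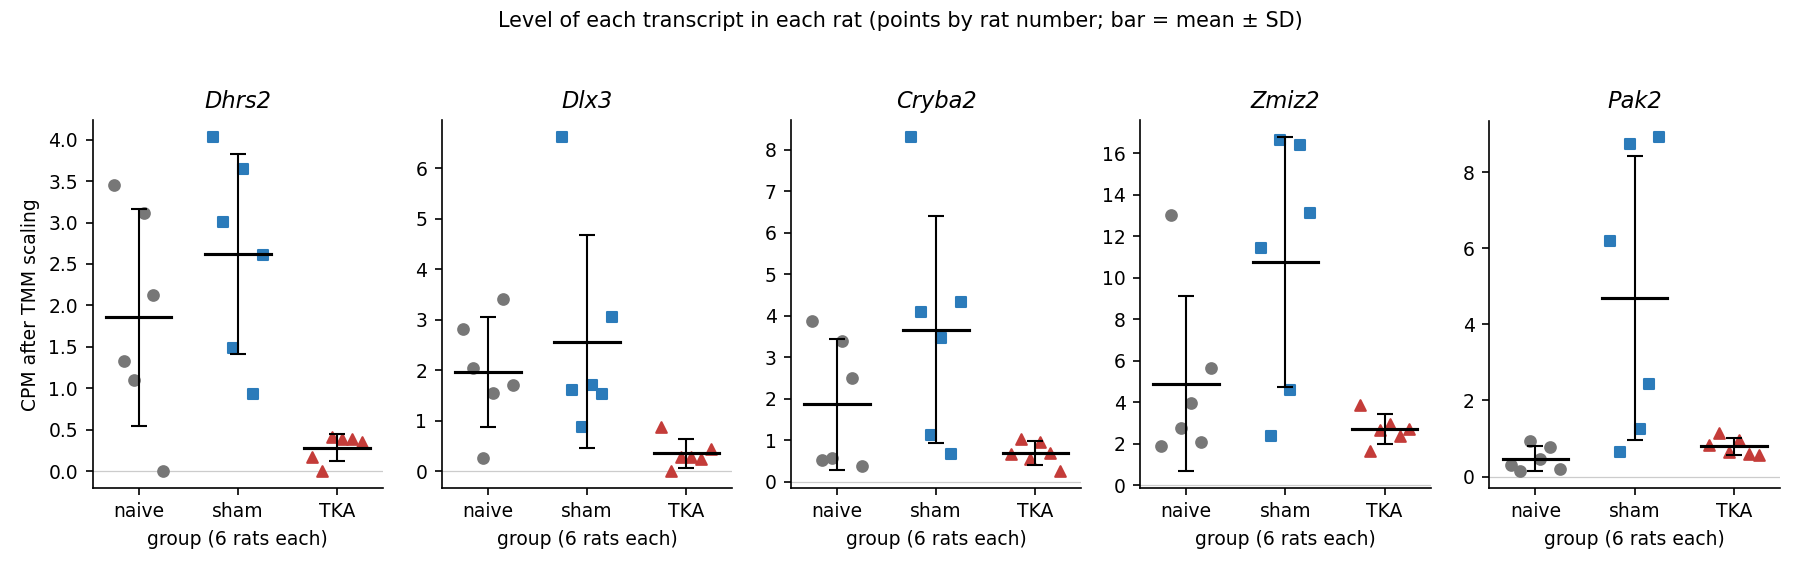
CPM after TMM scaling (y axis, a separate linear scale for each transcript) in naive, sham, and TKA rats (x axis), with 1 point for each rat and bars for the mean ± SD of 6 rats. TKA rats lie below most sham rats in every panel, as the members were chosen to do. Naive rats sit mostly with sham rats for *Dhrs2* and *Dlx3* (5 of 6 above all TKA rats). For *Pak2* they sit near the TKA rats, with 4 of 6 below all of them.

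Sham rats were compared with naive rats to ask whether the incision alone went with a higher level. Because the choice favored transcripts that were high in these sham rats, the values of the 5 members lean upward, and they are not independent of it. Across all 15153 transcripts tested with edgeR's quasi-likelihood test, 0 (0%) were called, which took a fold-change of 1.5 or more with an adjusted p-value below 0.05, and 625 had an unadjusted p-value under 0.05. DESeq2 without a prior called 4 and voom 0. In naive rats the lowest count was 3 for *Pak2*, 0 for *Dhrs2*, 8 for *Cryba2*, and 6 for *Dlx3*. These members passed edgeR's filter on low counts here only with the sham rats, in which they were chosen to be high. Their p-values in this comparison are therefore a description and no test. Without the filter, edgeR gave *Pak2* a log2 fold-change of 3.30 with an adjusted p of 0.243. *Pak2* had a log2 fold-change of 3.30 with a standard error (SE) of 0.66 (95% interval 1.90 to 4.71, 9.88-fold higher in sham), with an unadjusted p of 0.000139 and an adjusted p of 0.656 from edgeR. Only 2 transcripts higher in sham rats had a lower unadjusted p, and 6 of the 15153 had a larger log2 fold-change. DESeq2 without a prior gave *Pak2* 3.32 on the log2 scale with an adjusted p of 0.000209, so it was called there, whereas voom gave 2.89 with an adjusted p of 0.90. DESeq2 with a prior shrank the value to 0.31, with an adjusted p of 0.037 and a fold-change under the threshold. Over 14 alternatives the adjusted p of *Pak2* ran from 0.000209 to 0.999, and it was under 0.05 in 3 of them, all run with DESeq2. Complete separation, with every sham rat above every naive rat, was seen for 0.066% of transcripts and for no member.

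*Zmiz2* had a log2 fold-change of 1.13 between sham and naive rats (SE 0.51, 95% interval 0.05 to 2.22), with an unadjusted p of 0.0413 and an adjusted p of 0.998 from edgeR. Values for the remaining 3 were 0.97 for *Cryba2* (SE 0.64), 0.50 for *Dhrs2* (SE 0.64), and 0.38 for *Dlx3* (SE 0.54), each with an adjusted p of 0.998 from edgeR. The *Dlx3* value turned to -0.16 when sham rat 1 was left out. The *Dhrs2* value was 0.24 without naive rat 6 and 0.78 without naive rat 1, and the *Cryba2* value 0.55 without sham rat 1 and 1.33 without naive rat 1. The *Zmiz2* value was 1.72 without naive rat 2. The 95% intervals of these 3 all included 0, from -0.85 to 1.85 for *Dhrs2*, from -0.77 to 1.53 for *Dlx3*, and from -0.40 to 2.33 for *Cryba2*. At an unadjusted p under 0.05, 2 of the 5 were higher in sham rats and 0 lower, against 2.49% and 1.64% of all transcripts tested, and the choice of the members itself leans that way.

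TKA rats were compared with naive rats to ask whether the joint surgery went with a level below that of unoperated ganglia. Here the choice favored transcripts that were low in these TKA rats. Of 15170 transcripts tested, 13 (0.0857%) were called by edgeR, all of them higher in TKA rats, and none of the members was among them. *Dlx3* had a log2 fold-change of -2.46 (SE 0.71, 95% interval -3.99 to -0.94, 5.51-fold lower in TKA), with an unadjusted p of 0.00391 and an adjusted p of 0.145 from edgeR. It ranked 7 from the lowest log2 fold-change of all 15170, and 93 transcripts lower in TKA rats had a lower unadjusted p. DESeq2 without a prior gave -2.49 with an adjusted p of 0.0133, so *Dlx3* was called there. Over all alternatives its adjusted p ran from 0.0128 to 0.841. Complete separation, with every TKA rat below every naive rat, was seen for 1.25% of transcripts and for no member.

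*Dhrs2* did not pass edgeR's filter on low counts in the 12 naive and TKA rats, so it had no test there. Without a filter on these 12 rats, edgeR gave *Dhrs2* a log2 fold-change of -2.68 with an unadjusted p of 0.00791 and an adjusted p of 0.23, and DESeq2 without a prior, an alternative chosen after seeing the data, gave -2.71 with an adjusted p of 0.0308. Without naive rat 6 the transcript passed the filter, which asks for fewer rats when a group is smaller. It then had a log2 fold-change of -2.93 with an adjusted p of 0.174 from edgeR. In a fit of all 18 rats *Dhrs2* had -2.67, but it passed the filter there only through the sham rats, in which it was chosen to be high, so that value is a description with no test. *Dlx3*, which passed in both fits, had -2.46 with an adjusted p of 0.076 from edgeR in the fit of 18 rats.

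*Cryba2* had a log2 fold-change of -1.43 in TKA against naive rats (SE 0.62, 95% interval -2.76 to -0.10), with an unadjusted p of 0.0374 and an adjusted p of 0.264 from edgeR. *Zmiz2* had -0.86 (SE 0.45, 95% interval -1.83 to 0.11, adjusted p = 0.348 from edgeR), and its value was -0.27 without naive rat 2. *Pak2* had 0.74 (SE 0.51, 95% interval -0.35 to 1.83, adjusted p = 0.467 from edgeR), which was the opposite sign to the other 4.

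**Figure D2:**
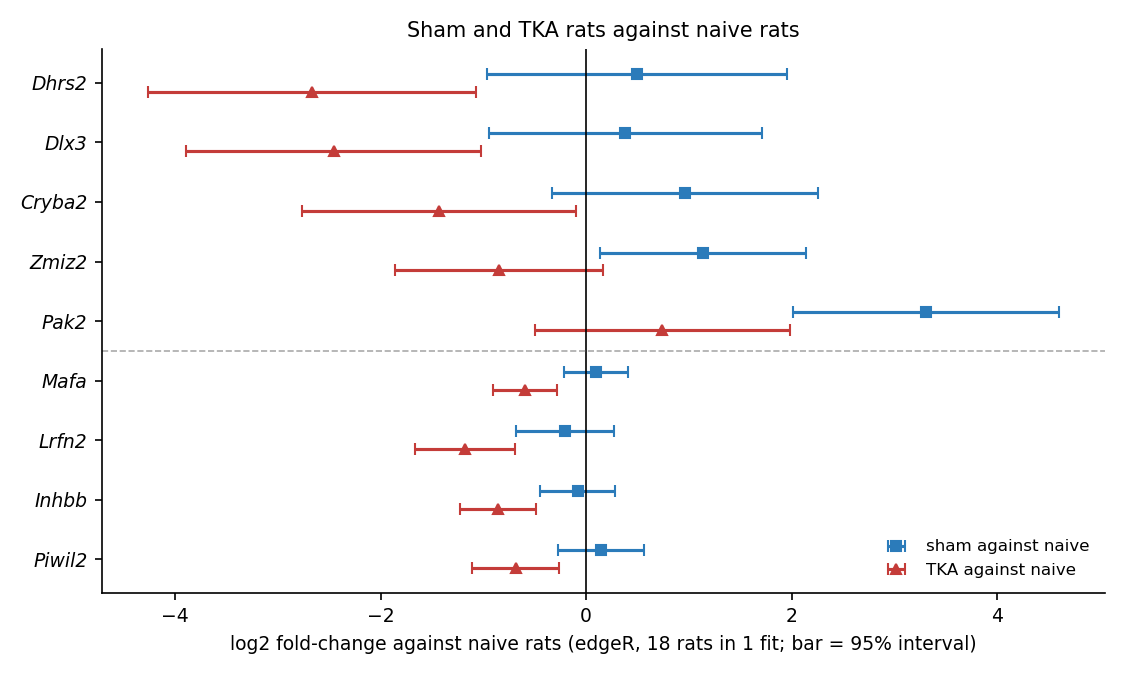
Log2 fold-change against naive rats (x axis) of the 5 transcripts and, under the dashed line, the other 4 lower transcripts, for sham rats (squares) and TKA rats (triangles), from 1 edgeR fit of 18 rats, with bars for 95% intervals. The TKA intervals of *Dlx3* (-3.89 to -1.02), *Cryba2* (-2.77 to -0.09), and each of the other 4 lower transcripts lie below 0. The sham intervals of *Pak2* (2.01 to 4.60) and *Zmiz2* (0.13 to 2.14) lie above it. Of the transcripts shown, only *Lrfn2* and *Inhbb* were called by edgeR in this fit, in TKA against naive rats. Of all 16048 transcripts, 116 were called there, 12 of them lower in TKA rats. In the fit of TKA and naive rats alone neither was called (adjusted p = 0.101 and 0.115 from edgeR). The paper listed both for being lower in these TKA rats than in sham rats. *Dhrs2* entered this fit only through the sham rats, so its sham and TKA bars are a description and no test.

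The distance between the sham and TKA levels was then divided at the naive level, as a description. In the fit of 18 rats, the part of the log2 distance that lay above the naive level was 13.4% for *Dlx3* and 15.6% for *Dhrs2*, so most of it lay between naive and TKA rats. It was 40.3% for *Cryba2* and 57.1% for *Zmiz2*, for which the naive level was about midway. It was 129% for *Pak2*, a value over 100 because TKA rats lay above naive rats too. On mean CPM, without a log scale, the same parts were 27.0% for *Dlx3*, 32.7% for *Dhrs2*, 60.3% for *Cryba2*, 72.8% for *Zmiz2*, and 108% for *Pak2*. Comparisons with naive rats and with sham rats share animals, so these parts carry no test.

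Between TKA and sham rats, edgeR called 0 of 15320 transcripts (0%), with 1355 at an unadjusted p-value under 0.05, while DESeq2 without a prior called 62, DESeq2 with a prior 56, and voom 1. This is the contrast by which the members were chosen, and their values in it are given without a test. The log2 fold-changes were -3.18 for *Dhrs2* (SE 0.62), -2.85 for *Dlx3* (0.72), -2.57 for *Pak2* (0.60), -2.40 for *Cryba2* (0.57), and -1.99 for *Zmiz2* (0.42). Counted from the lowest of all 15320, they held ranks 3, 4, 7, 9, and 17 in this order. *Dhrs2* was the only member whose groups did not overlap, as was seen for 0.333% of transcripts lower in TKA rats. For each of the other 4 members, 5 of 6 sham rats lay above all TKA rats, and the remaining one was sham rat 2 for *Zmiz2* and *Pak2*, sham rat 5 for *Cryba2*, and sham rat 3 for *Dlx3*.

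The 4 other transcripts lower in TKA than sham rats in the same table of the paper, *Mafa*, *Lrfn2*, *Inhbb*, and *Piwil2*, were taken as the nearest outside the chosen set. *Mafa* encodes a basic leucine zipper transcription factor, *Lrfn2* a synaptic adhesion molecule, *Inhbb* a subunit of activin and inhibin, and *Piwil2* an Argonaute family protein that binds small RNAs. Their log2 fold-changes between TKA and sham rats ran from -0.98 to -0.70 and their ranks from 200 to 465. *Lrfn2* and *Inhbb* also had all 6 TKA rats below all 6 naive rats, as was seen for 1.25% of all transcripts tested. Each of the 4 had all 6 TKA rats below all 6 sham rats, which 1 of the 5 members and 0.333% of all transcripts tested had. The paper listed these 4 for their difference between TKA and sham rats, so this separation is a description and no test. The part of their sham to TKA distance that lay above the naive level was -21.5% for *Lrfn2*, -10.6% for *Inhbb*, 13.8% for *Mafa*, and 17.4% for *Piwil2*, and a negative value means that sham rats lay below naive rats. On this log2 scale *Dhrs2* and *Dlx3* were within the range of these 4, and *Cryba2*, *Zmiz2*, and *Pak2* were above it. On mean CPM the parts of these 4 ran from -31.7% for *Lrfn2* to 21.7% for *Piwil2*. All 5 members lay above that range, *Dlx3* at 27.0% and *Dhrs2* at 32.7% included.

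The members differed more from rat to rat than most transcripts of their abundance. The biological coefficient of variation within groups, which removes counting error, was 77.5% for *Dhrs2*, 72.3% for *Cryba2*, 71.7% for *Dlx3*, 66.9% for *Pak2*, and 56.9% for *Zmiz2*. Medians over the 751 to 800 transcripts within 0.25 of each member's mean log2 CPM were 60.0%, 53.1%, 59.3%, 54.6%, and 34.4% in the same order. The other 4 lower transcripts were at 19.9% to 28.7%, but they were more abundant than the members, so these values are not directly comparable. Among transcripts of like abundance, the share with a lower value was 68.27% for *Inhbb*, 64.12% for *Piwil2*, 48.85% for *Lrfn2*, and 19.89% for *Mafa*. For the members this share ran from 71.02% (*Pak2*) to 89.38% (*Zmiz2*).

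The spread of the raw counts, taken as their variance over their mean, was lowest in TKA rats for all 5. The variance of the raw counts over their mean is 1 where counting error is the only source of spread and libraries are of equal depth. The counts were not scaled for depth here, and unequal depth adds to the ratio. *Pak2* had 72.4 in sham, 5.10 in naive, and 0.648 in TKA rats, where its counts were between 13 and 22 in all 6 animals. *Cryba2* had 40.3 in sham, 31.2 in naive, and 1.70 in TKA rats, and *Zmiz2* 80.5, 73.2, and 6.36. *Dhrs2* had 11.3, 21.6, and 2.69, and *Dlx3* 32.3, 14.0, and 5.73. These ratios fall with the mean count, and the members were chosen to be low in TKA rats. The coefficient of variation of CPM gave another order, since TKA rats had the highest for *Dlx3* (83.4%, against 82.3% in sham and 55.6% in naive rats) and a higher one than sham rats for *Dhrs2* (58.2% against 46.2%). It was lowest in TKA rats for *Cryba2* (40.5%), *Pak2* (29.2%), and *Zmiz2* (26.8%). The difference in spread between groups was not tested.

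**Figure D3:**
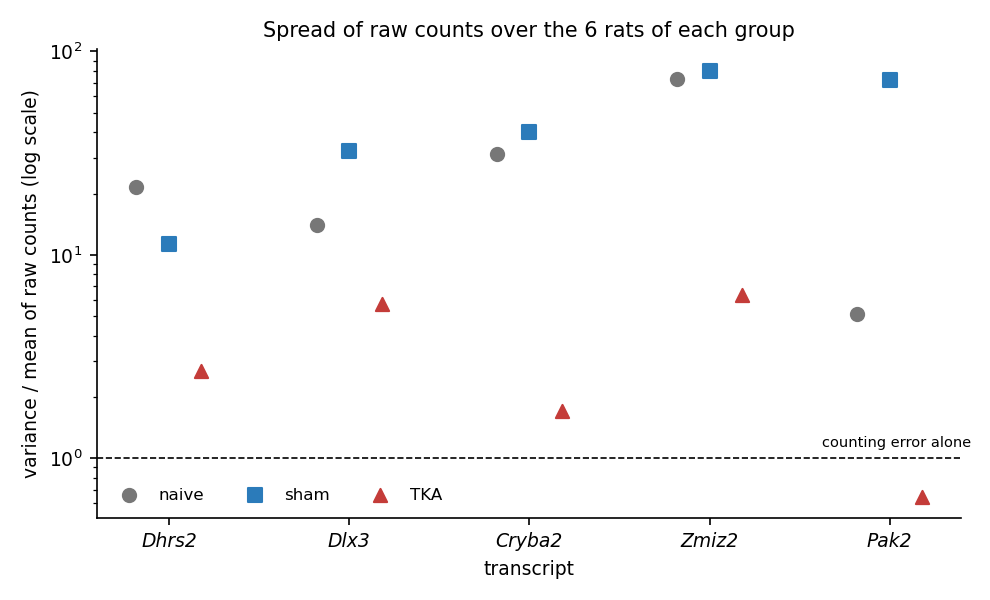
Variance of the raw counts divided by their mean (y axis, log scale) over the 6 rats of each group for each transcript (x axis). A dashed line at 1 marks where counting error alone would lie in libraries of equal depth. TKA rats (triangles) have the lowest value for every transcript, down to 0.648 for *Pak2*, and naive and sham rats lie between 5.10 and 80.5.

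Whether the same rats were high for several members was asked for the 10 pairs of members, on deviations of log2 CPM from the group means, after the levels of single rats had been seen. *Dhrs2* and *Cryba2* had a Pearson's r of 0.60 (permutation test, two-sided, p = 0.00628, 0.0628 adjusted over the 10 pairs) and a Spearman's rho of 0.68 (permutation p = 0.00799, adjusted 0.0799) over 18 rats. Leaving out naive rat 6 and TKA rat 2, the farthest from the median of *Dhrs2*, gave an r of 0.80. By group, r was 0.95 in sham, 0.77 in naive, and -0.48 in TKA rats (n = 6 each, described only). Naive rats 1, 4, and 5 were the highest 3 for both, and sham rats 1, 2, 4, and 6 the highest 4 for both. Sham rats 2 and 4, both high for this pair, were the lowest 2 of their group for *Zmiz2*.

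*Zmiz2* and *Pak2* shared their high sham rats 1, 3, 5, and 6 and their low ones, 2 and 4, with an r of 0.86 in sham rats. In naive rats r was -0.71, with naive rat 2 the highest for *Zmiz2* and the lowest for *Pak2*. Over all 18 rats r was 0.28 (permutation p = 0.386, adjusted 0.643) and rho 0.22 (permutation p = 0.47, adjusted 0.671), and r was 0.24 without sham rat 2 and naive rat 2. No pair of the 10 had an adjusted permutation p under 0.05, and the 2 pairs described were chosen after seeing the data.

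**Figure D4:**
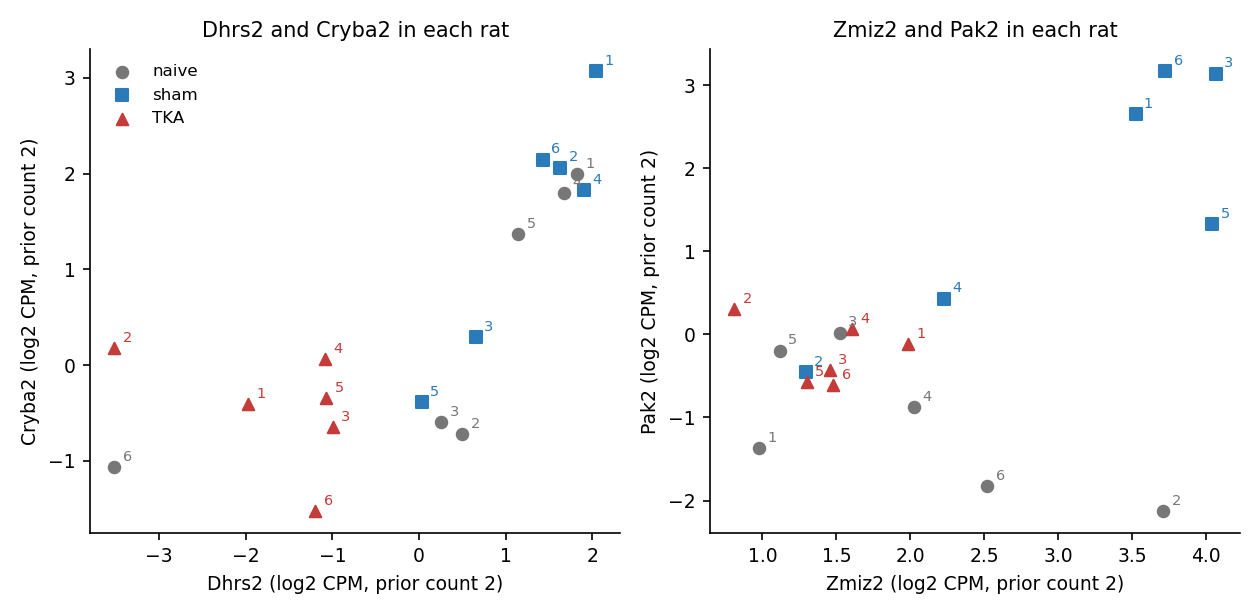
Log2 CPM (prior count 2) of *Cryba2* against *Dhrs2* (left) and of *Pak2* against *Zmiz2* (right) in each rat, numbered by rat, for naive (circles), sham (squares), and TKA rats (triangles). *Dhrs2* and *Cryba2* are high together in naive rats 1, 4, and 5 and sham rats 1, 2, 4, and 6, whereas *Zmiz2* and *Pak2* are high together in sham rats 1, 3, 5, and 6.

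For each member, the 3 named transcripts with the most similar log2 CPM over the 18 rats were listed by Pearson's r, as a description to which the differences between groups contribute. Only 3242 of the 16048 transcripts kept had a name. For *Dhrs2* they were *Lexm* (r = 0.88), *Rimkla* (0.87), and *Disp3* (0.84), and no unnamed transcript ranked above them. For *Dlx3* they were *Cela1* (0.84), *Prr35* (0.83), and *Piwil2* (0.83), again with none above. For *Cryba2* they were *Tmem145* (0.81), *Vstm2b* (0.77), and *Hoxb8* (0.77), for *Zmiz2* they were *Cyhr1* (0.72), *Med10* (0.68), and *Ip6k1* (0.68), and for *Pak2* they were *Ankrd13b* (0.70), *Zfp84* (0.64), and *Fancc* (0.63). Among all 16048, 7 transcripts had a higher r with *Cryba2* than *Dhrs2* did (0.75), while 36 had a higher r with *Dhrs2* than *Cryba2* did. For *Zmiz2* and *Pak2* (0.55), 29 had a higher r with *Pak2* and 88 a higher r with *Zmiz2*.

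Related genes were then counted from lists of each member's family, with the members themselves left out because they were chosen on this contrast, and only genes with a name could be read. Of 29 other short-chain dehydrogenase/reductases, 5 were named and tested between TKA and sham rats. None was called by edgeR, 4 were higher and 0 lower in TKA rats at an unadjusted p under 0.05, as were 5.94% and 2.9% of all transcripts, and the list median was 0.41 against 0.01 for all transcripts. The log2 fold-change of *Dhrs3*, a retinal reductase, was 0.92 (adjusted p = 0.51 from edgeR), and that of *Rdh10*, a retinol dehydrogenase, 0.45 (adjusted p = 0.535 from edgeR). *Dhrs1* had 0.29 (adjusted p = 0.527 from edgeR) and *Rdh13* -0.25 (adjusted p = 0.706 from edgeR).

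Of 21 other crystallins, 4 were named, and between TKA and sham rats none was called, 2 were higher and 0 lower at an unadjusted p under 0.05, with a median of 0.86. *Cryab*, a small heat shock protein found in glia and muscle as well as lens, had a log2 fold-change of 1.33 (adjusted p = 0.535 from edgeR), at 523 ± 543 CPM in TKA and 209 ± 74.5 CPM in sham rats (SD, n = 6 each). *Crybg3* had 0.71 (adjusted p = 0.557 from edgeR). Of 23 other p21-activated kinases and their partners, 8 were named, and none was called, 1 was higher and 2 lower at an unadjusted p under 0.05, with a median of 0.31. The lower ones were *Pak1* (-0.35, adjusted p = 0.534 from edgeR), and *Arhgef6*, an exchange factor for Rac and Cdc42 (-0.40, adjusted p = 0.557 from edgeR). The higher one was *Git1*, a scaffold that binds this kinase complex (0.34, adjusted p = 0.557 from edgeR).

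Against naive rats, *Cdc42*, the GTPase that activates Pak2, had 0.48 in TKA rats (adjusted p = 0.206 from edgeR), and among the 8 kinases and partners 4 were higher and 1 lower at an unadjusted p under 0.05, as were 11.7% and 5.48% of all transcripts, with a median of 0.35 against 0.02 for all. Between sham and naive rats, 0 of the 8 were at an unadjusted p under 0.05. Of 18 other genes of the PIAS and SUMO pathway, 3 were named, and their log2 fold-changes between TKA and sham rats were 0.24 for *Sumo3*, 0.03 for *Uba2*, and -0.12 for *Sae1*, with unadjusted p-values of at least 0.0573 from edgeR. Of 19 other Distal-less and related homeobox genes, 2 were named. *Isl1*, a transcription factor of sensory neurons, had -0.66 (adjusted p = 0.622 from edgeR) and *Msx3*, at under 1 CPM, had -1.02 (adjusted p = 0.783 from edgeR).

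Neuronal genes known to rise after nerve injury were listed for comparison. All 8 of its tested genes, of 20 in the list, were higher in TKA than naive rats at an unadjusted p under 0.05, against 11.7% of all transcripts, and edgeR called 2 of them. *Vgf*, a secreted neuropeptide precursor, rose by 1.80 on the log2 scale (SE 0.26, adjusted p = 0.0185 from edgeR), and *Tubb6*, a tubulin, by 1.08 (SE 0.13, adjusted p = 0.00672 from edgeR). Of the same 8 genes, 5 were also higher in sham than naive rats at an unadjusted p under 0.05 from edgeR, against 2.49% of all transcripts. Between TKA and sham rats 6 were higher, against 5.94%, and edgeR called 0 in either comparison. Names were available mainly for transcripts at the top of sorted tables, so a named list leans toward genes that differ.

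Ganglia are mixtures, and fewer cells of a type and less RNA per cell cannot be told apart in these counts. The summed level of the 4 named neuron markers of 15 (*Nefl*, *Nefm*, *Nefh*, *Calca*) was 17534 to 39678 CPM in TKA rats (median 29856), 34673 to 44140 CPM in sham rats (median 40698), and 35547 to 46647 CPM in naive rats (median 42733), so the labelled tissue carried its markers in all 18 rats. The 4 muscle markers of 10 summed to 33.2 to 8558 CPM in TKA rats, 20.4 to 608 CPM in sham rats, and 18.4 to 248 CPM in naive rats. Other non-neuronal lists had their highest medians in TKA rats too. The 6 named fibroblast and perineurium markers of 8 summed to 507 to 1344 CPM in TKA rats, 269 to 515 CPM in sham rats, and 287 to 495 CPM in naive rats. The 4 satellite glia markers of 8 summed to 446 to 2741, 291 to 673, and 339 to 407 CPM in the same order, and the 7 macrophage markers of 11 to 196 to 780, 78.6 to 376, and 108 to 223 CPM. No marker read was at 0 in any group. None of the 6 epidermal markers was named, so their level was not analysed here. TKA rats 3 and 4 had neurofilament levels of 13.7 and 13.6 on the log2 CPM scale, within the range of naive rats (13.5 to 13.9). Their *Dhrs2* was at 0.414 and 0.382 CPM and their *Dlx3* at 0.276 and 0.287 CPM, below 5 of 6 naive rats in each case. The muscle marker *Acta1* was at 647 CPM in TKA rat 3 and 22.3 CPM in TKA rat 4, against 161 CPM in the highest naive rat. The members were chosen to be low in TKA rats, so the values of these rats are a description and no test of the cell mixture.

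Without TKA rats 2 and 6, the log2 fold-changes against naive rats were -2.44 for *Dhrs2* (adjusted p = 0.227 from edgeR), -2.23 for *Dlx3* (adjusted p = 0.14 from edgeR), -1.38 for *Cryba2* (adjusted p = 0.431 from edgeR), -0.73 for *Zmiz2* (adjusted p = 0.605 from edgeR), and 0.68 for *Pak2* (adjusted p = 0.756 from edgeR). Without TKA rat 4 they were -2.77, -2.41, -1.54, -0.88, and 0.68 in the same order, with adjusted p-values of at least 0.151 from edgeR. *Dhrs2* passed the filter on low counts in these fits because it asks for fewer rats when a group is smaller. With all naive and TKA rats it had no test, so these values do not check a tested result. With the neurofilament level of each rat as a covariate, *Dlx3* had -1.73 (adjusted p = 0.841 from edgeR) and *Cryba2* -0.92 (adjusted p = 0.91 from edgeR) against naive rats. *Zmiz2* had -0.75 (adjusted p = 0.886 from edgeR) and *Pak2* 0.57 (adjusted p = 0.918 from edgeR) there. In sham against naive rats with that covariate, *Pak2* had 3.37 (adjusted p = 0.992 from edgeR). *Cryba2* had 1.81 in place of 0.97, *Dhrs2* 1.33 in place of 0.50, and *Dlx3* 0.59 in place of 0.38. *Zmiz2* went the other way, with 1.02 in place of 1.13. The adjusted p-values were at least 0.992 from edgeR. The part of the cell mixture in the differences of the members was not tested.

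Sex was not used to choose the members and was balanced as labelled. In a fit of 18 rats with the group as a term, edgeR called 5 of 16048 transcripts (0.0312%), and none of the members. Log2 fold-changes of female against male rats were 0.09 for *Dhrs2*, -0.14 for *Dlx3*, -0.15 for *Zmiz2*, -0.19 for *Cryba2*, and -0.20 for *Pak2*, with adjusted p-values of at least 0.941 from edgeR. The 95% intervals reached as low as -1.30 (*Cryba2*) and as high as 1.33 (*Dhrs2*), so sizeable differences between the sexes were not detectable at this depth and number of rats.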

How the data were processed

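RNA from L3 and L4 DRGs of 18 rats (6 naive, 6 sham, 6 TKA) was sequenced, and groups, rat numbers, and sex came from the sample labels and the study's methods. The authors aligned paired-end reads of 150 bp to rn6 with HISAT2 and deposited raw featureCounts counts per Ensembl transcript. Tool versions, the annotation release, and strand and overlap settings are not given in the sources used here. The supplementary table of the study served only to name 3837 transcripts, and its columns of fold-changes and p-values were not used.

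Pairs of groups were fitted with edgeR 4.0.16 (R 4.3.3, filterByExpr, TMM, quasi-likelihood F test, Benjamini-Hochberg over all transcripts tested). A call took an adjusted p below 0.05 with a 1.5-fold change or more. Sex was fitted over 18 rats with the group as a term. Intervals are 95% and come from the fits, and log2 CPM used a prior count of 2. The limit for a count of 0 is 3 counts and covers counting error only. P-values of the fits set a difference between groups against the spread between rats, each 1 sample, with counting error included. The permutation p-values concern correlations between members. Results were recomputed with DESeq2 1.42.0 (prior or none), limma 3.58.1 (voom), other scaling and filters, covariates, and each rat left out in turn. The scripts were tested on simulated data.

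The members, the lists, and the tests were chosen with earlier results of these data known. The transcripts named are the members, the other 4 lower transcripts of the same published table, the 3 named transcripts most like each member, and the list genes that passed an unadjusted p of 0.05 or that a result turns on. Some list genes are given by count only. Promoters came from RefSeq (GRCr8), and rn6 coordinates are not given. No column of the table belonged to another series.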

Additional observations from a re-analysis of the deposited data

Results flagged for a closer look

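A single rat lay far from the other 5 in 2 of the 15 combinations of a member and a group, where chance gives 0.75 for normally distributed values. Log2 CPM near a count of 0 need not be so distributed, so 0.75 is only a rough guide. *Dhrs2* in naive rat 6 was at -3.52 log2 CPM (prior count 2) against 0.25 in the next lowest naive rat. The first value is that of a count of 0 and is set by the prior count. *Dlx3* in naive rat 3 was at -1.504 log2 CPM against 0.72 in the next lowest naive rat. Both were the naive rat that lay within the range of TKA rats for that transcript, and they were different animals.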

How the results depend on the processing

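Between TKA and sham rats, the 0 calls became 62 with DESeq2 without a prior, 56 with a prior, 1 with voom, 11 with all 3 groups in 1 fit, and 68 with DESeq2 without a prior or filter. The prior shrank the members' values to -1.56 for *Dhrs2*, -1.17 for *Pak2*, -1.13 for *Cryba2*, -1.10 for *Dlx3*, and -1.25 for *Zmiz2*. Between sham and naive rats, the 0 calls became 4 with DESeq2 without a prior and 5 without a filter as well, where *Pak2* was called at 3.32 in both. Between TKA and naive rats, the 13 calls became 429 with DESeq2 without a prior, 343 with a prior, 123 with voom, 116 with all 3 groups in 1 fit, 450 with DESeq2 without a prior or filter, 39 with the neurofilament covariate, and 105 without TKA rats 2 and 6. DESeq2 without a prior called *Dlx3* at -2.49 with and without the filter, and *Dhrs2* at -2.71 without it. The cause of these differences was not tested.

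The rat numbers were not treated as pairs in the main fits. The median correlation of same-numbered rats was at most 0.06, and the highest was 0.22 between TKA and sham and 0.13 between sham and naive rats. Rats of different numbers were not compared in this way, so shared handling by rat number was not tested. The replicate block left 1 call between TKA and naive rats and moved no call of a member. It could not be fitted for sex, which follows the rat number. The sex calls, 5 in all, became 50 with DESeq2 without a prior, 20 with a prior, 50 with voom, 3 with the robust fit, 12 with TKA rat 4 entered as male, 63 with DESeq2 without a prior or filter, 11 with the neurofilament covariate, and 25 without TKA rats 2 and 6. The sex value of *Dhrs2* turned to -0.029 with DESeq2 and a prior, -0.67 with voom, and -0.090 without TKA rats 2 and 6, and voom turned *Zmiz2* to 0.48, *Pak2* to 0.88, and *Dlx3* to 0.30.

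Leaving out each rat in turn gave 3 to 113 calls between TKA and naive rats, with 113 without TKA rat 2 and 36 without TKA rat 5, and 1 to 13 for sex. Log2 fold-changes of *Dlx3* in sham against naive rats ran from -0.16 to 0.61. Sex values ran from -0.084 to 0.33 for *Dhrs2*, -0.31 to 0.25 for *Zmiz2*, -0.53 to 0.011 for *Pak2*, -0.39 to 0.13 for *Cryba2*, and -0.33 to 0.28 for *Dlx3*. With 0 to 386 counts per rat, depth limits every value of the members.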
